A study of Mus musculus with 12 samples.

Results

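The proteasome genes of the mouse fallopian tube are described here: every gene with array values whose annotated symbol begins with Psma to Psmg followed by a digit. This symbol rule took 43 of the 11229 genes measured, and it uses no expression value. Psma1 and Psma6 were annotated too but were blank on all arrays. Of the 43 genes, 41 encode subunits, activators or assembly chaperones of the proteasome. The other 2 were taken by their symbols alone: Psmc3ip is a cofactor of meiotic recombination, and Psme3ip1 is a binding partner of the activator Psme3. Whole fallopian tubes were compared between mogp-TAg transgenic (TG) and wildtype (WT) female mice, both on the C57BL6 background. Each genotype had 3 mice, aged 7, 8 and 9 weeks, and each mouse was measured on 2 Illumina BeadChip arrays. The transgene places the SV40 large T antigen, an oncoprotein that inactivates RB family proteins and p53, under the promoter of mouse oviductal glycoprotein (Ovgp1), a product of the secretory cells lining the tube. The arrays read RNA of all cell types of the tube together. With 1 mouse per genotype at each age, age and individual mouse cannot be told apart.

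The proteasome degrades ubiquitin-tagged proteins. Its barrel-shaped 20S core has outer rings of alpha subunits and inner rings of beta subunits, and the beta subunits Psmb5, Psmb6 and Psmb7 carry the cutting sites. The 19S particle caps the core, binds ubiquitin and unfolds substrates with a ring of ATPases. Interferon gamma induces Psmb8, Psmb9 and Psmb10, which replace Psmb5, Psmb6 and Psmb7 in newly built cores. The resulting immunoproteasome yields peptides suited to MHC class I molecules. Interferon gamma also induces Psme1 and Psme2, which form the PA28 activator of the core, whereas Psme3 forms a nuclear activator and Psme4 encodes PA200.

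The windows around the transcription start are printed for Psmb9, Psmb8 and Psme1, chosen for having the largest differences between the genotypes in the interferon-inducible group. They come from RefSeq (GRCm38.p6) and run from 250 bases before to 50 bases after the start, 5′ to 3′ on the strand of the gene. Capitals mark a match to the gamma-activated sequence, TTCNNNGAA, or to the interferon response element, taken as GAAA repeated after 2 bases of any kind, on either strand.
Psmb9, chr17:34187281-34187580, minus strand: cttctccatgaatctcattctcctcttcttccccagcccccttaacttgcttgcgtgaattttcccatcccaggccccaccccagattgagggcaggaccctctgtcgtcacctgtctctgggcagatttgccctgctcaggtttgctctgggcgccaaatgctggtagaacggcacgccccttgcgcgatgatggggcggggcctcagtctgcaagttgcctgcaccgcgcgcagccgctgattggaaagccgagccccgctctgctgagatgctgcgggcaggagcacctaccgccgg
Psmb8, chr17:34197945-34198244, plus strand: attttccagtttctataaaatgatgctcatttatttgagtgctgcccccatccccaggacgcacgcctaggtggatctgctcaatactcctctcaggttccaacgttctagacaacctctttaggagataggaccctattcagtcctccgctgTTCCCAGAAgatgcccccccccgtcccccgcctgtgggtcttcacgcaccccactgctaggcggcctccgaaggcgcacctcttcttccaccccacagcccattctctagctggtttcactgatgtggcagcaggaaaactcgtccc
Psme1, chr14:55578244-55578543, plus strand: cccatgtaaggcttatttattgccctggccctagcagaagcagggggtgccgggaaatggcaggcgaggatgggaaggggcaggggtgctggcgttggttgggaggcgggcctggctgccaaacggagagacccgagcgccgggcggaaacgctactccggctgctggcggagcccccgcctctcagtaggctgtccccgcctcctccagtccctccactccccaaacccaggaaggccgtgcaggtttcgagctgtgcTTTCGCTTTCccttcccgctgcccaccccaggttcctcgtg
Psmb8 held TTCCCAGAA at position -97, where 0 is the first transcribed base. Psme1 held TTTCGCTTTC, the reverse strand form of the interferon response element, at position 9. Psmb9 held neither of these letters in its window. Its window contains the start of Tap1, a peptide transporter gene on the opposite strand, and the windows of the 2 genes share 275 of 300 bases.

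A window was found for 37 of the 43 proteasome genes, with 40 windows in all because some genes have more than 1 start. The gamma-activated sequence was in 3 of the 40 windows, or 7.5%, against 8.30% of all 32851 mouse windows. The members with it were Psmb8, Psmd2 and Psmg1, where it overlaps a TGANNNNGC match. The interferon response element was in 4 windows, or 10%, against 3.44% of all windows, and it was found in Psme1 and in the constitutive genes Psmb3 and Psmd4 and the chaperone gene Psmd9. TGANNNNGC, the core of the antioxidant response element that Nfe2l1 can bind, was in 23 windows, or 57.5%, against 41.3% of all windows. These matches describe the letters only.

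In TG tubes 8 of the 43 proteasome genes rose and 0 fell at an adjusted p below 0.05 (limma over all 16664 probes, Benjamini-Hochberg). Over all genes 10.4% rose and 12.5% fell, or 22.9% in either direction. At an unadjusted p below 0.05 there were 10 of 43, against 37.2% of all genes, the others being Psme2, higher in TG, and Psmd10, lower in TG. The 8 were the immune catalytic subunits Psmb8, Psmb9 and Psmb10, the PA28 activator Psme1, the core subunit Psma7, the ATPase Psmc3, the chaperone Psmd5, and Psmc3ip. The interferon-inducible group differed most: 4 of its 5 members rose, with a median difference of 0.59 on the log2 scale, TG minus WT. Of the 28 constitutive subunits of the core and the 19S particle, 2 rose, and their median difference was 0.07, or -0.03 when the arrays were scaled by their medians. The median over all genes was -0.02. No test of one group of genes against the other was made.

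Psmb8 and Psmb9 passed in each alternative in which they were tested, 14 and 15 in number. Their log2 differences ran from 0.73 to 1.08 and from 0.96 to 1.54. These ranges leave out the deposited scores, which are in standardized units. The other 6 calls depended on single mice or settings: Psme1 passed in 12 of 15 alternatives, Psmc3ip and Psmd5 in 10, Psmb10 and Psmc3 in 8, and Psma7 in 6. Without the TG mouse of 8 weeks or without the WT mouse of 9 weeks 2 proteasome genes rose, without the WT mouse of 7 weeks 3, and without the TG mouse of 9 weeks 4. Over all probes, calls that rose also fell in number without those mice, to 873, 1092, 1178 and 1302, against 1748 with all mice. The median signal of an array before normalization lay between 136.9 and 331.9 and was higher on the repeat 1 array than on the repeat 2 array of every mouse.

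**Figure D1:**
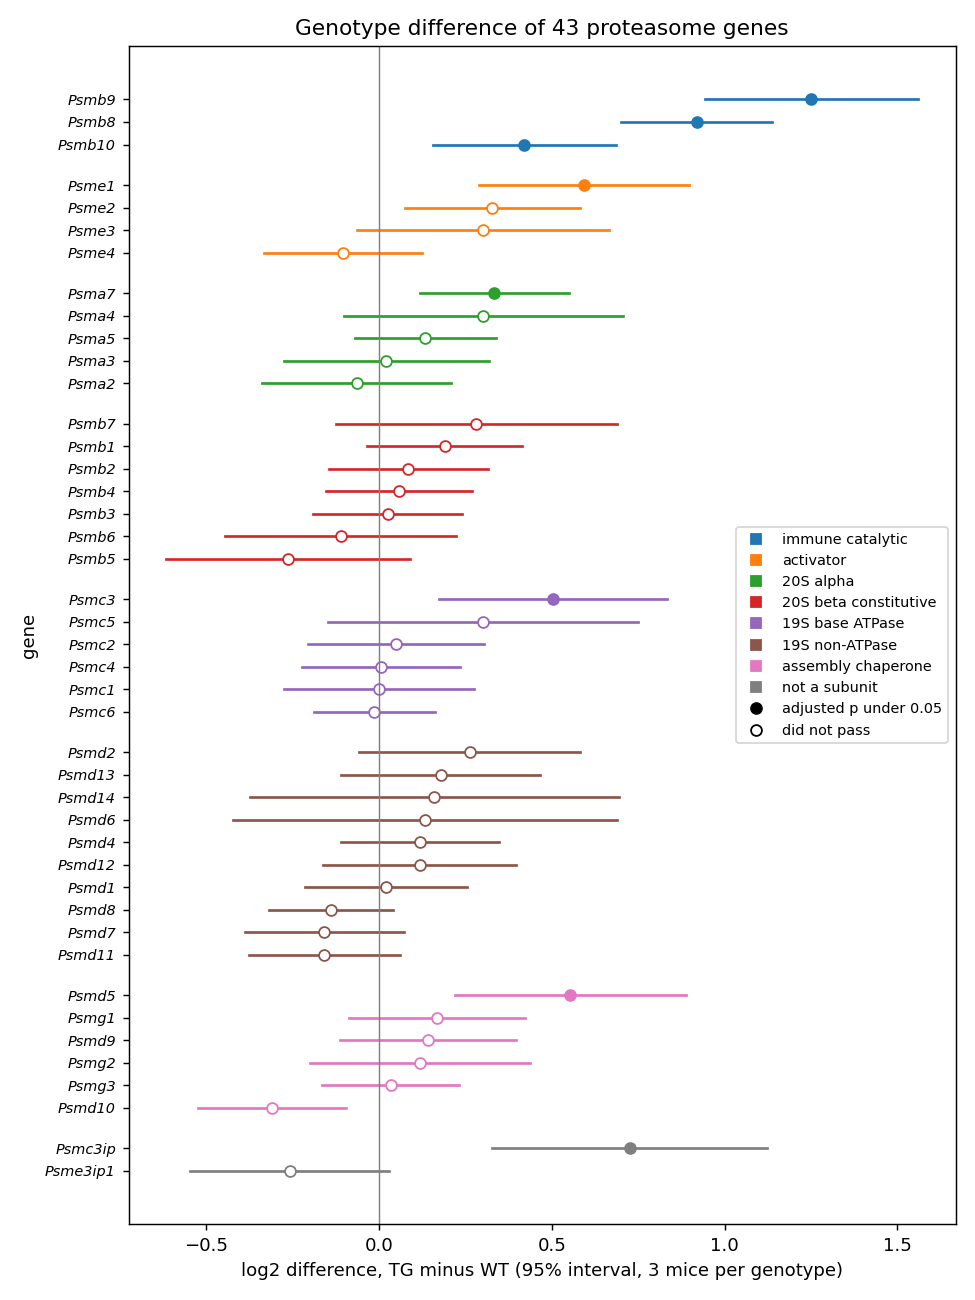
Log2 difference of normalized signal, TG minus WT, for the 43 proteasome genes, grouped by class. Points are differences of means over 3 mice per genotype and bars are 95% confidence intervals from the limma fit; filled points passed an adjusted p of 0.05. All 3 immune catalytic subunits are filled and to the right of 0, whereas the constitutive beta subunits are all open.

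Psmb9, the immune subunit that takes the place of Psmb6, had the largest difference of any proteasome gene. Its normalized signal was 1042, 996.9 and 1273 in the TG tubes at 7, 8 and 9 weeks, and 442.0, 418.3 and 530.1 in the WT tubes. Signals here are quantile-normalized fluorescence, taken as the geometric mean of the arrays of a mouse. Every TG mouse was above every WT mouse. The difference was 1.25 on the log2 scale (SE 0.13, n = 3 mice per genotype), a 2.38-fold higher signal in TG (limma adjusted p = 9.56e-04). Psmb9 ranked 216 among the differences of 11229 genes. The gap was much the same at each age, with 1.24, 1.25 and 1.26 at 7, 8 and 9 weeks.

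Psmb8, which replaces Psmb5, had signals of 287.2, 326.8 and 276.0 in TG tubes at 7, 8 and 9 weeks, against 155.5, 150.8 and 163.3 in WT tubes. The genotypes did not overlap, and the WT mice were close to each other. The WT signals lay just above 144.1, the level taken as near the array floor, where background makes up much of a signal and a fold is understated. The difference was 0.92 on the log2 scale (SE 0.09, n = 3 each), or 1.89-fold (limma adjusted p = 8.50e-04).

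Psmb10, which replaces Psmb7, had signals of 1635, 1382 and 1248 in the TG tubes at 7, 8 and 9 weeks and 1025, 1040 and 1104 in the WT tubes. The TG mice again lay above all WT mice, but the gap was 0.67, 0.41 and 0.18 on the log2 scale at the successive ages. Over the 3 ages the difference was 0.42 (SE 0.11, n = 3 each), or 1.34-fold (limma adjusted p = 0.0369). A second probe of Psmb10 gave 0.59 (limma adjusted p = 0.00816), with gaps of 0.80, 0.62 and 0.35. The first probe did not pass with the repeat 1 arrays only (0.26, limma adjusted p = 0.249) or with age as a block (limma adjusted p = 0.0627). It also did not pass without any 1 of 5 mice, all but the TG mouse of 9 weeks, with limma adjusted p between 0.0620 and 0.107.

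**Figure D2:**
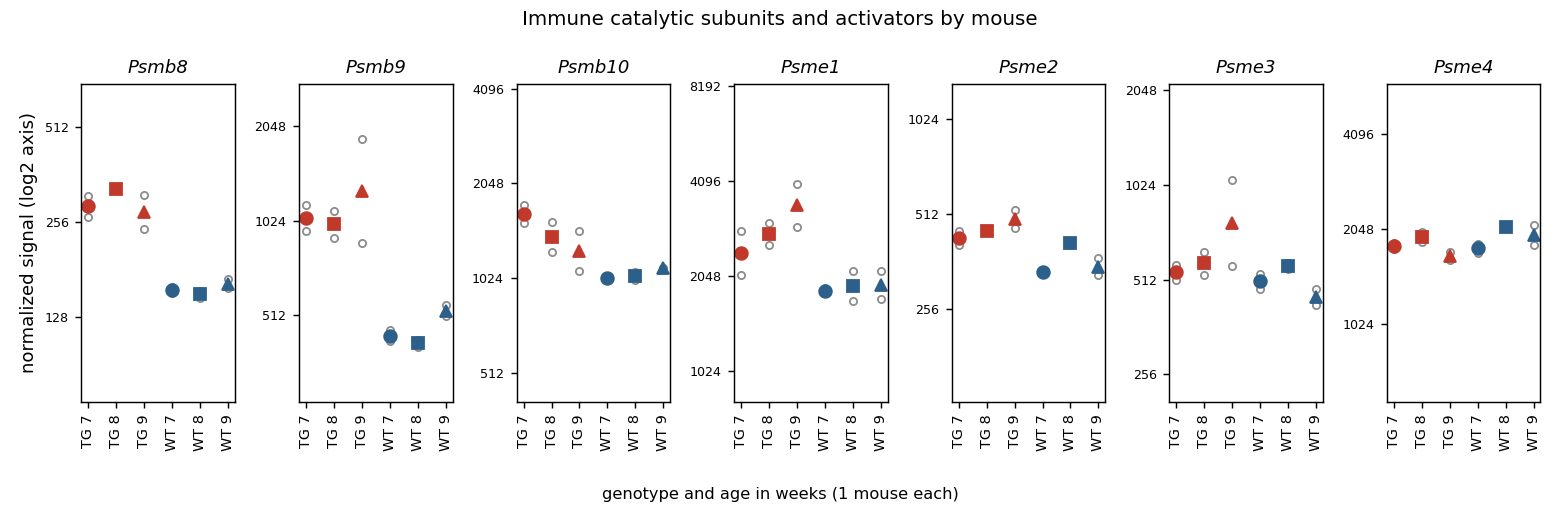
Normalized signal of the 3 immune catalytic subunits and the 4 activators by mouse, on log2 axes with their own range for each gene. Large symbols are the mean of the arrays of a mouse and small open circles the single arrays. TG mice are separated from WT mice for Psmb8, Psmb9, Psmb10, Psme1 and Psme2, and overlap them for Psme3 and Psme4.

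Psme1, the alpha subunit of PA28, had signals of 2425, 2776 and 3432 in TG tubes at 7, 8 and 9 weeks, against 1841, 1903 and 1917 in WT tubes. All TG mice exceeded the WT mice, and the log2 SD was 0.25 in TG and 0.031 in WT. The difference was 0.59 (SE 0.13, n = 3 each), or 1.51-fold (limma adjusted p = 0.0177), and a second probe gave 0.52 (limma adjusted p = 0.0158). Without the TG mouse of 8 weeks or the WT mouse of 7 or 9 weeks the first probe just missed the threshold, with limma adjusted p of 0.0645, 0.0574 and 0.0528.

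Psme2, the beta subunit of PA28, is known to form a ring with Psme1. Its signals were 430.3, 453.2 and 492.6 in TG tubes at 7, 8 and 9 weeks and 335.1, 415.1 and 348.9 in WT tubes. The genotypes did not overlap, though the WT mouse of 8 weeks came close to the TG mice. The difference of 0.33 (SE 0.11, n = 3 each) did not pass (limma adjusted p = 0.0710). It passed when all 12 arrays were fitted with the repeat number as a block (limma adjusted p = 0.0243). The same held with array quality weights (limma adjusted p = 0.00983) and without the WT mouse of 8 weeks (limma adjusted p = 0.0310). On the repeat 1 or the repeat 2 arrays alone it did not pass (limma adjusted p = 0.110 and 0.133).

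The activators that are not part of PA28 alpha and beta did not pass the test. Psme3 had signals of 540.0, 577.2 and 776.7 in TG tubes at 7, 8 and 9 weeks, against 505.9, 567.3 and 450.7 in WT tubes. Most of its difference of 0.30 (SE 0.16, limma adjusted p = 0.214, n = 3 each) came at 9 weeks, where the gap was 0.79. Psme4, the PA200 activator, had signals of 1808, 1934 and 1677 in TG and 1777, 2083 and 1965 in WT, and the genotypes overlapped. Its difference was -0.10 (95% interval -0.33 to 0.13, n = 3 each). A second, dimmer probe of Psme4 pointed the other way, with 0.36 (limma adjusted p = 0.0602).

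Of the 7 constitutive beta genes, which include the subunits that the immune ones replace, 0 passed in either direction (limma), and 0 had an unadjusted p below 0.05, against 37.2% of all genes. Psmb5, which carries the chymotrypsin-like site, had signals of 496.3, 565.2 and 719.4 in TG tubes at 7, 8 and 9 weeks, and 645.8, 791.5 and 682.8 in WT tubes. Its TG mice were below the WT mice at 7 and 8 weeks and not at 9 weeks, and the difference was -0.26 (95% interval -0.62 to 0.09, n = 3 each). Psmb6, the caspase-like subunit, had 2768, 3164 and 3452 in TG and 2936, 4057 and 3197 in WT, a difference of -0.11 (interval -0.45 to 0.22). Psmb7, the trypsin-like subunit, had 1954, 2286 and 2667 in TG and 1578, 2360 and 1781 in WT, a difference of 0.28 (interval -0.13 to 0.69). The genotypes overlapped for all 3 genes. The structural subunits Psmb1, Psmb2, Psmb3 and Psmb4 differed by 0.19, 0.08, 0.02 and 0.06. The intervals leave room for changes of moderate size in each of these genes.

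The ratio of each immune subunit to the subunit it replaces was then compared within mice, over 5 fixed pairs of probes. The signals of different probes cannot be compared as amounts, so the change of the ratio between genotypes was read and not the ratio itself. Relative to the WT mean, the log2 ratio of Psmb9 to Psmb6 was 1.46, 1.20 and 1.43 in TG mice of 7, 8 and 9 weeks and 0.14, -0.41 and 0.28 in WT mice. The ratio was 1.36 higher in TG on the log2 scale (95% interval 0.74 to 1.99, n = 3 each), and the genotypes were fully separated. The ratio of Psmb8 to Psmb5 was 1.38, 1.38 and 0.79 in TG and 0.12, -0.22 and 0.11 in WT, a difference of 1.18 (interval 0.55 to 1.81). Both gave p = 0.1 in an exact two-sided permutation test, or 0.167 adjusted over the 5 pairs; 0.1 is the smallest p that 3 against 3 mice can give.

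The ratio of Psmb10 to Psmb7 did not separate the genotypes, with 0.57, 0.11 and -0.26 in TG mice of 7, 8 and 9 weeks and 0.21, -0.35 and 0.14 in WT mice. The difference was 0.14 (interval -0.69 to 0.97, n = 3 each, exact permutation p = 0.8). For the activators, Psme1 over Psme3 was 0.29 higher in TG (interval -0.01 to 0.59), with no overlap and an exact permutation p of 0.1. Psme2 over Psme3 differed by 0.03 (interval -0.32 to 0.37, exact permutation p = 0.8). The sign of the Psmb10 and Psme2 ratios turned in some of the alternatives.

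**Figure D3:**
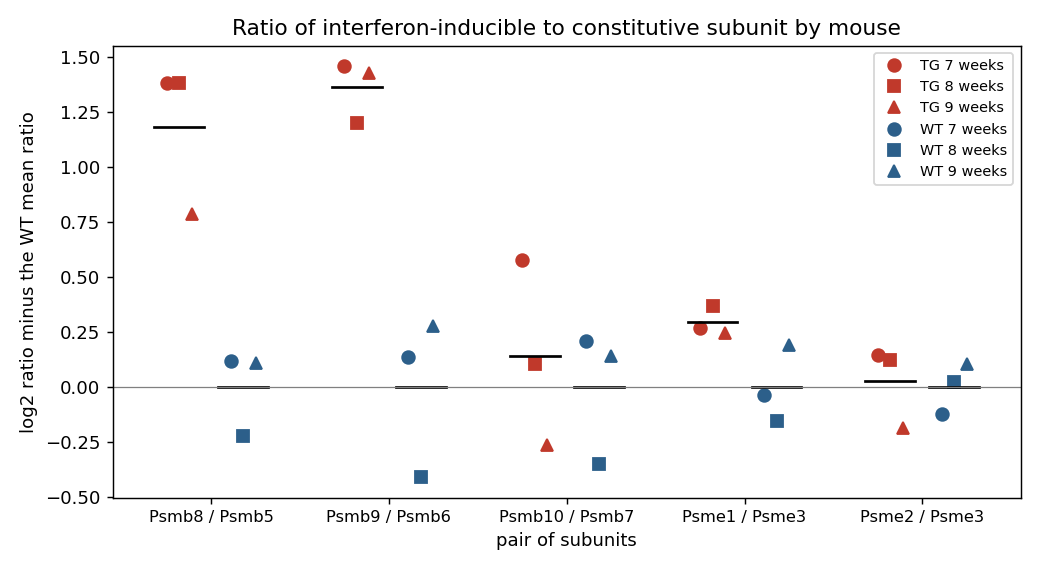
Within-mouse log2 ratio of an interferon-inducible gene to its constitutive counterpart, minus the mean ratio of the 3 WT mice. Symbols are single mice, shaped by age, and bars are means over 3 mice. TG lies above WT without overlap for Psmb8 over Psmb5, Psmb9 over Psmb6 and Psme1 over Psme3, and overlaps it for Psmb10 over Psmb7 and Psme2 over Psme3.

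Of the 5 alpha subunits with values, 1 rose, or 20%, against 10.4% of all genes. Psma7 had signals of 2586, 2807 and 2744 in TG tubes at 7, 8 and 9 weeks, against 1980, 2337 and 2153 in WT tubes, with no overlap. The difference was 0.33 (SE 0.09, limma adjusted p = 0.0404, n = 3 each), but a second Psma7 probe gave 0.21 and did not pass (limma adjusted p = 0.182). The call also ended when arrays were scaled by their medians (0.23, limma adjusted p = 0.168). The other alpha genes differed by 0.30 for Psma4, 0.13 for Psma5, 0.02 for Psma3 and -0.07 for Psma2.

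Among the 6 ATPases of the 19S base, which unfold the substrate, Psmc3 alone rose, or 16.7%, against 10.4% of all genes. It had signals of 1527, 1708 and 1987 in TG tubes at 7, 8 and 9 weeks and 1111, 1448 and 1132 in WT tubes, so that the lowest TG mouse was only slightly above the highest WT mouse. The difference was 0.50 (SE 0.14, limma adjusted p = 0.0426, n = 3 each), with gaps of 0.46, 0.24 and 0.81 at the successive ages. With median scaling it was 0.41 and did not pass (limma adjusted p = 0.112). The other ATPases differed by 0.30 for Psmc5, and Psmc1, Psmc2, Psmc4 and Psmc6 by between -0.01 and 0.05. Psmc6 is close to the array floor in both genotypes, with geometric means of 117.4 in TG and 118.5 in WT, so a change in it could go unseen.

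The 10 non-ATPase subunits of the 19S particle with values include the ubiquitin receptor Psmd4, the scaffold subunits Psmd1 and Psmd2 and the deubiquitinase Psmd14, and 0 of them passed (limma). At an unadjusted p below 0.05 the count was also 0, against 37.2% of all genes. Their differences ran from -0.16 for Psmd11 to 0.26 for Psmd2, with 0.18 for Psmd13, 0.12 for Psmd12 and -0.16 for Psmd7. A second probe of Psmd12 gave -0.15 and one of Psmd7 gave 0.19. Psmd14 and Psmd6 varied most between TG mice. Psmd14 had signals of 586.8, 705.5 and 989.9 in TG tubes at 7, 8 and 9 weeks and 631.2, 858.1 and 543.1 in WT tubes. Psmd6, a lid subunit, had 148.7, 181.6 and 297.5 in TG and 167.9, 200.9 and 180.6 in WT. In both genes the TG mouse of 9 weeks was the highest of the 6 mice and the other TG mice lay below the WT mouse of the same age. Psmd11 and Psmd8, both lid subunits, were lower in every TG mouse than in every WT mouse, with differences of -0.16 and -0.14 that did not pass (limma adjusted p = 0.270 and 0.242). Over all genes 22.3% had all TG mice below all WT mice.

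The 26 constitutive subunits that did not pass had 95% intervals between -0.62 and 0.75 on the log2 scale and standard errors between 0.075 and 0.24 (n = 3 mice per genotype). The genotypes overlapped in 24 of the 28 constitutive genes. In 2 of the 28 every TG mouse was above every WT mouse, against 18.9% of all genes. In 2 every TG mouse was below, against 22.3% of all genes. Over all 43 proteasome genes, 9 had every TG mouse above every WT mouse and 3 had every TG mouse below.

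Psmd5, a chaperone that helps to assemble the 19S base, had signals of 370.8, 376.6 and 325.7 in TG tubes at 7, 8 and 9 weeks, against 271.1, 269.9 and 196.6 in WT tubes. All TG mice were above the WT mice, and the 9-week mice were lowest in both genotypes. The difference was 0.55 (SE 0.14, limma adjusted p = 0.0320, n = 3 each). Psmd10, or gankyrin, is another chaperone of the base and is known as an oncoprotein that binds RB. It pointed the other way, with signals of 1085, 1071 and 1156 in TG tubes and 1283, 1503 and 1327 in WT tubes. All TG mice lay below the WT mice, but the difference of -0.31 (SE 0.09, n = 3 each) just missed the threshold (limma adjusted p = 0.0513). It passed with the repeat number as a block (limma adjusted p = 0.0225). The 2 other Psmd10 probes gave -0.51 (limma adjusted p = 0.00429) and -0.16 (limma adjusted p = 0.248). The chaperones Psmd9, Psmg1, Psmg2 and Psmg3 differed by 0.14, 0.17, 0.12 and 0.03 and did not pass.

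Psmc3ip, the recombination cofactor taken by its symbol, had signals of 787.9, 1019 and 1229 in TG tubes at 7, 8 and 9 weeks and 537.1, 676.0 and 600.1 in WT tubes. Every TG mouse exceeded every WT mouse, and the difference was 0.73 (SE 0.17, limma adjusted p = 0.0228, n = 3 each). Psme3ip1 differed by -0.26 (limma adjusted p = 0.181).

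Many constitutive subunits shared an order of mice within each genotype. In TG, the 9-week mouse was the highest of its genotype in 16 of 28 genes (57.1%, against 35.3% of all genes) and the 7-week mouse was the lowest in 19 (67.9%, against 37.6%). In WT, the 8-week mouse was the highest in 25 of 28 (89.3%, against 34.2% of all genes). The WT 8-week mouse led in 26 genes on the repeat 1 arrays, in 22 on the repeat 2 arrays, and in 27 with median scaling. The TG 9-week mouse led in 18, 12 and 18 genes under these, and 12 of 28 is 42.9%, against 34.2% of all genes on the repeat 2 arrays. The TG 7-week mouse was lowest in 18, 16 and 20 genes. These counts describe 6 mice, and the subunits are not independent of each other.

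The median difference of the constitutive subunits at 7, 8 and 9 weeks was 0.04, -0.08 and 0.23, and 15, 7 and 25 of the 28 genes were higher in the TG mouse of that age. The interferon-inducible group had medians of 0.67, 0.54 and 0.76, with all 5 genes higher in TG at each age. Over all genes the medians were -0.03, -0.01 and -0.02. At each age only 1 TG and 1 WT mouse were compared, so these values were not tested. In the fit of genotype by age in weeks, 0 of the 43 genes passed (lowest limma adjusted p = 0.755), and over all genes 0% did. At an unadjusted p below 0.05 the fit took 1 proteasome gene, Psmd6, and 7.13% of all genes.

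**Figure D4:**
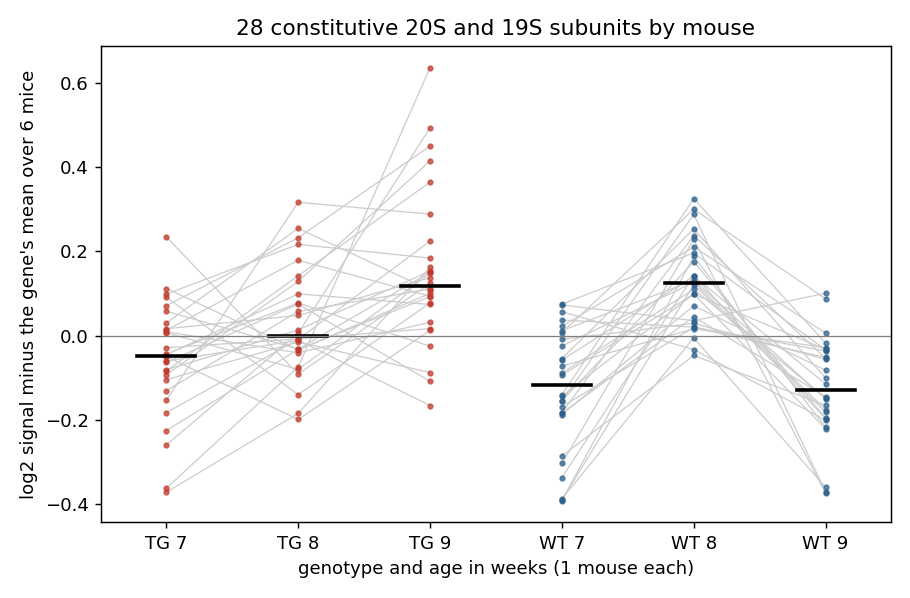
Log2 normalized signal of the 28 constitutive core and 19S subunits in each mouse, minus the mean of the gene over the 6 mice. Points are genes, grey lines join a gene within a genotype, and bars are medians over genes. The TG mouse of 9 weeks and the WT mouse of 8 weeks have the highest medians of their genotypes, 0.12 and 0.12.

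The differences were also read in each set of arrays. Psmb9 was higher in TG by 1.54 on the repeat 1 arrays and by 0.96 on the repeat 2 arrays, and Psmb8 by 1.08 and 0.73; all 4 values passed (highest limma adjusted p = 0.00836). Psme1 was higher by 0.68 and 0.52 and passed in both (limma adjusted p = 0.0219 and 0.0482). Psmb10 was higher by 0.26 and 0.58, and it passed on the repeat 2 arrays only. The TG mouse of 9 weeks had the widest gap between its arrays in 19 of the 43 genes. Its Psmb9 signal was 1867 on the first array and 867.7 on the second, both above the highest WT array, at 552.0. Its Psmb5 signal was 1079 and 479.4, which lie above and below the WT arrays, at 562.0 to 890.1.

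**Figure D5:**
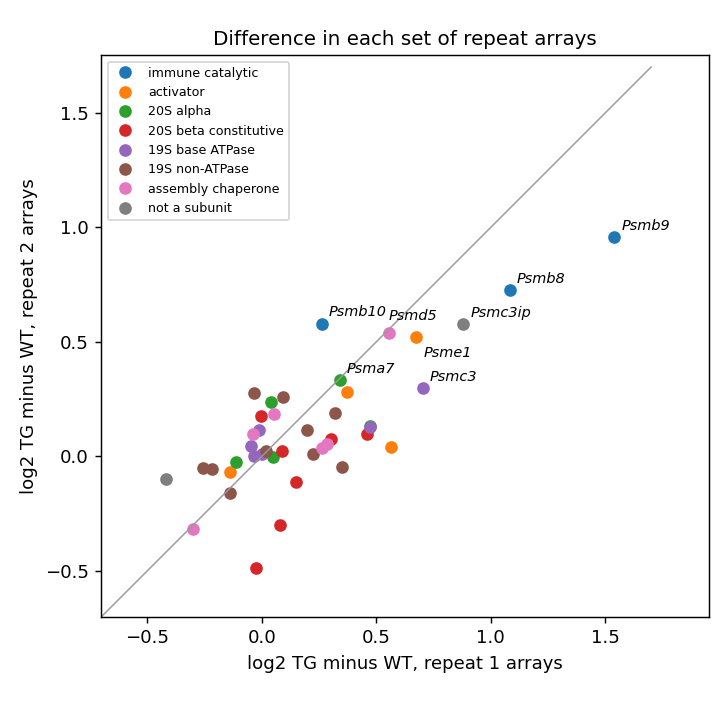
Log2 difference, TG minus WT, of each proteasome gene on the repeat 1 arrays (horizontal axis) and the repeat 2 arrays (vertical axis), with 3 arrays per genotype in each. Names mark the 8 genes that passed on the means of both arrays, and the line marks equal differences. Psmb9 and Psmb8 are the farthest to the upper right, at 1.54 and 0.96 and at 1.08 and 0.73.

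Genes that work beside the immunoproteasome were counted in the same fit. Of 12 genes of peptide transport and MHC class I presentation, 8 rose and 0 fell, with a median difference of 0.83. The share that rose was 66.7%, against 10.4% of all genes. Without the TG mouse of 8 weeks 5 rose, and without that of 7 weeks 1 fell. The class I heavy chains H2-Q7 and H2-D1 rose 3.04-fold and 2.67-fold, and Tapbp and Tapbpl, which help to load peptide, rose by 0.63 and 0.42 on the log2 scale. Tap1, the neighbour of Psmb9, rose by 1.02, with signals of 238.2, 337.1 and 309.1 in TG tubes at 7, 8 and 9 weeks and 137.8, 137.6 and 156.6 in WT tubes. The WT signal of Tap1 was near the array floor, so its fold is understated. Its transport partner Tap2 did not pass, at -0.19, with gaps of 0.48, -0.36 and -0.69 at 7, 8 and 9 weeks. Of 13 regulators of interferon signalling, 6 rose (46.2%, against 10.4% of all genes) and 1 fell (7.69%, against 12.5% of all genes). Irf7 rose by 2.01, Nlrc5, a transactivator of class I genes, by 1.17 and Irf1 by 0.66, whereas Ciita, the transactivator of class II genes, fell by 0.42 on the log2 scale. Nlrc5 was near the array floor in WT, and Ciita was close to it in both genotypes, with geometric means of 113.7 in TG and 152.2 in WT. The call of Ciita held in 9 of 14 alternatives and ended without any 1 of 4 mice or with the repeat 2 arrays only. That of Irf1 ended without the TG mouse of 8 weeks or with the repeat 1 arrays only, and those of Tapbp and Tapbpl without the TG mouse of 8 weeks or with the repeat 2 arrays only, that of Tapbp also without the WT mouse of 8 or of 9 weeks.

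Genes of the Nfe2l1 pathway were counted as well. Nfe2l1, a transcription factor that restores proteasome genes when proteasome capacity is short, had signals of 1675, 1561 and 1418 in TG tubes at 7, 8 and 9 weeks, against 2347, 2308 and 2632 in WT tubes. It fell by 0.65 on the log2 scale (SE 0.10, limma adjusted p = 0.00427, n = 3 each), with no overlap. Sel1l, part of the machinery that moves proteins out of the endoplasmic reticulum for degradation, fell by 0.66 (limma adjusted p = 0.0414). The call of Nfe2l1 held in all 15 alternatives; that of Sel1l held in 8 and ended with age as a block, with the repeat 1 arrays only and without any 1 mouse but the TG mouse of 8 weeks. The other 6 of 8 genes of this pathway did not pass, so that 25% fell, against 12.5% of all genes. Of 10 proteasome-associated genes, Uchl5, a deubiquitinase of the 19S particle, rose by 0.58, and Sem1, a small lid subunit, fell by 0.38. Each is 10% of that list, against 10.4% of all genes that rose and 12.5% that fell. The call of Uchl5 held in all 15 alternatives, and that of Sem1 in 7; it ended with age as a block, array quality weights or the repeat 1 arrays only and without any 1 mouse but the TG mouse of 9 weeks.

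Leukocytes carry immunoproteasomes in the resting state, so their markers were counted beside these results. Of 12 markers, 1 rose (8.33%, against 10.4% of all genes), the myeloid gene Lyz2, by 0.97, and 0 fell. In 5 every TG mouse was above every WT mouse, against 18.9% of all genes, and the median difference of the 12 was 0.25. Of these 5, Ptprc, Cd79a and Cd79b were near the array floor. Without the TG mouse of 8 weeks 0 rose, without that of 9 weeks 3 rose, without the WT mouse of 9 weeks 2 rose, and without the TG mouse of 7 weeks 1 fell. Their summed signal was 19150, 14130 and 10960 in TG tubes at 7, 8 and 9 weeks and 11140, 11420 and 12070 in WT tubes. Bright probes weigh most in this sum, so it is not an amount of leukocytes. Laptm5 alone had 6695, 4730 and 3338 in TG tubes at these ages, and 3520, 4115 and 3448 in WT tubes. The sum of the TG mouse of 9 weeks was the lowest of the 6, and single markers differed from it. Lyz2 had 3047, 2399 and 1750 in TG tubes at 7, 8 and 9 weeks, against 1112, 1353 and 1137 in WT tubes. Fcer1g, an Fc receptor subunit of myeloid cells, had 2253, 1887 and 1508 in TG tubes and 852.6, 1188 and 1432 in WT tubes. Cd74, the class II invariant chain, had 3847, 2432 and 2156 in TG tubes, against 3633, 2614 and 3652 in WT tubes. In the TG mouse of 9 weeks Lyz2 and Fcer1g were thus above every WT mouse and Cd74 was below every one. Among the TG mice the sum was highest at 7 weeks and lowest at 9 weeks. The defining markers Ptprc, Cd3g, Cd79a and Cd79b were near the array floor in both genotypes, and Cd3e in TG, with a geometric mean of 120.4 in TG and 145.9 in WT. The part of leukocytes in any of these differences was not tested.

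Markers of the tube differed too. Ovgp1, the oviductal glycoprotein whose promoter drives the transgene, had signals of 18940, 20770 and 18540 in TG tubes and 23030, 22350 and 23110 in WT tubes (difference -0.24, limma adjusted p = 0.0831). Of 12 tube markers 7 fell, or 58.3%, against 12.5% of all genes, and all 7 were of ciliated cells or smooth muscle. The differences were -2.14 for Des, -2.07 for Dnaic1, -0.49 for Foxj1 and -0.38 for Cnn1. In all, 3 of the 12 markers were near the array floor, among them Foxj1 and Cnn1. The smooth muscle marker Acta2 did not pass (-0.08, limma adjusted p = 0.569). In RNA of whole tubes, fewer cells of a type and less RNA per cell cannot be told apart.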

How the data were processed

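Total RNA of whole fallopian tubes from 6 mice was measured on 12 single-colour Illumina BeadChips, 2 per mouse, with biotin-labelled cRNA, per the labels' protocols. The labels do not say whether the arrays of a mouse share an extract, so the mouse was the replicate. The deposited values are a score, a log signal standardized per array, and GenomeStudio 1.6.0 was used per the submitters' processing notes. Whether a background was subtracted is not stated there. The scale and centre of each array were solved from the grid of its low values, which turned 100% of values into signals with 1 decimal, within 0.01 of the last digit. Each array's deposited median lay between 0.0110 and 0.222. Of 25697 probes, 9033 were blank on all arrays and 16664 were tested. The 12 signal and 12 detection columns of a scanner table match no single sample and were not used.

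Signals were quantile-normalized, put on the log2 scale and averaged over the arrays of a mouse (R 4.3.3, limma 3.58.1). Genotype was tested with lmFit and eBayes on 4 residual degrees of freedom, and genotype by age on 2, with Benjamini-Hochberg adjustment over all probes. Pair ratios were tested by exact permutation in R over 20 arrangements, and scipy 1.17.1 was used to recover the signals. The signal recovery and the genotype fit were tested on simulated data. In simulated data with 200 of 16664 probes changed, the genotype fit recovered 35% of changes of 0.5 on the log2 scale and 91% of changes of 1. In the real data 1748 probes rose and 1822 fell. The adjusted threshold depends on the share of changed probes, so these recovery shares do not carry over to the real fit. The number of arrays limits the precision. A gene stands for its probe with the highest mean; 16 of the 43 had several probes, of which 5 had differing signs and 0 had opposed calls. The repeat numbers pair the arrays: repeat 1 minus repeat 2 values correlated between all 15 pairs of mice, at 0.109 to 0.638 across probes. Averaging both repeats within a mouse removes from the difference only the part of this shift that all mice share. A part particular to 1 mouse stays in it. The TG mouse of 9 weeks correlated at 0.109 with the WT mouse of 7 weeks and at 0.17 with that of 9 weeks. Every proteasome gene was named. Of the other lists, the rule took the 2 highest and 2 lowest calls, or the 2 lowest p. Tap1, Tap2, Ovgp1, Pax8, Krt8, Krt18, Acta2, Fcer1g, Cd74, Laptm5 and the leukocyte markers near the floor were named after their values were seen. The members and lists were chosen with earlier results of these data known.

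Alternatives were median scaling, normexp background correction (offset 50), the deposited scores, array quality weights, the replicate block, either repeat alone, leaving out each mouse, dropping dim probes, an age block and other probes of a gene.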

Additional observations from a re-analysis of the deposited data

Results flagged for a closer look

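In 13 of the 43 proteasome genes (30.2%, against 18.4% of all genes) the difference between TG and WT pointed up at one age and down at another on both repeat arrays. Each difference at an age rests on 1 TG and 1 WT mouse. The change between ages was not tested beyond the linear fit of genotype by age, in which 0 of these genes passed, and its cause was not tested. None of the 13 is among the 8 genes that rose. The values below are the log2 difference, TG minus WT, at the later age minus that at the earlier age.

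From 8 to 9 weeks the change was widest in the deubiquitinase Psmd14, at 1.15, where the difference was 0.87 at 9 weeks and -0.28 at 8 weeks. The ATPase Psmc5 changed by 0.89, Psmb7 by 0.63, the lid subunit Psmd12 by 0.55, the ATPase Psmc2 by 0.53, Psma3 by 0.49 and the chaperone Psmg2 by 0.41. From 7 to 9 weeks Psmd6 changed by 0.89, Psmc4 by 0.18, Psmc6, which is near the array floor, by 0.12, and the activator Psme4 by -0.25. From 7 to 8 weeks the ATPase Psmc1 changed by -0.47 and the scaffold subunit Psmd1 by -0.42.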

How the results depend on the processing

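Limits: each genotype had 3 mice, dim genes are understated near the array floor, and the array signals have no depth from which an interval could be drawn. Proteasome genes that rose numbered 8, and between 2 and 9 with 1 mouse left out at a time; those that fell numbered 0, and 1, Psmd10, with median scaling, the deposited scores or the replicate block. The count that rose was 5 with the repeat 1 arrays only and 5 with the repeat 2 arrays only. Over all probes, 1748 rose and 1822 fell, with 873 to 1815 and 858 to 1857 when 1 mouse was left out; 2653 rose with array quality weights, and 1091 rose and 1137 fell without dim probes, where fewer were tested. Of the 28 constitutive subunits 2 rose; the count was 0 with median scaling or repeat 2 only, 1 with normexp, the deposited scores or repeat 1 only, and 0 to 3 with 1 mouse left out. Of the interferon-inducible group 4 of 5 rose, and 2 to 4 with 1 mouse left out. Of the other lists, leukocyte markers that rose numbered 1, and 2 with normexp, the replicate block or repeat 1 only; interferon regulators that fell numbered 1, and 0 with repeat 2 only; proteasome-associated genes that fell numbered 1, 2 with median scaling and 0 with repeat 1 only or an age block; and Nfe2l1 pathway genes that fell numbered 2, and 1 with repeat 1 only or an age block. With 1 mouse left out at a time, class I genes that rose numbered 5 to 8 and those that fell 0 to 1, interferon regulators 4 to 6 and 0 to 1, leukocyte markers 0 to 3 and 0 to 1, and proteasome-associated genes 1 to 2 and 0 to 3; Nfe2l1 pathway genes that fell numbered 1 to 2. The fit with the repeat number as a replicate block and the mouse as a random block added the calls of Psme2 (0.33, limma adjusted p = 0.0243) and Psmd10 (-0.31, limma adjusted p = 0.0225), called 4 probes in the genotype by age fit, against 0, and changed no other call among the proteasome genes.

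The ratio of Psmb10 to Psmb7 turned to -0.21 with the repeat 1 arrays only and ran from -0.079 to 0.34 with 1 mouse left out. That of Psme2 to Psme3 turned to -0.20 and ran from -0.035 to 0.13. The other 3 pairs kept their sign in each alternative. Of 640 values of single genes under an alternative, other probes not counted, 549 kept direction and side of the threshold. Of the rest, 36 kept direction and lost the call, 8 gained it and 47 turned sign, none of them in a gene that passed. The cause was not tested. With median scaling the difference was -0.12 for Psma3, -0.029 for Psma5, -0.065 for Psmb2, -0.081 for Psmb3, -0.11 for Psmb4, -0.095 for Psmc2, -0.10 for Psmc4 and -0.023 for Psmd4. On the deposited scores the difference was -0.035 for Psma3, -0.014 for Psmb3, -0.012 for Psmb4, 0.0041 for Psmc1, -0.0046 for Psmc2, -0.017 for Psmc4 and 0.0032 for Psmc6. On the repeat 1 arrays only the difference was -0.0025 for Psmb2, 0.078 for Psmb6, -0.014 for Psmc2, -0.034 for Psmd4 and -0.036 for Psmg3. On the repeat 2 arrays only the difference was -0.0023 for Psma3, -0.11 for Psmb3, 0.044 for Psmc1, 0.0027 for Psmc6 and -0.045 for Psmd6. With array quality weights the difference was -0.059 for Psmd1. Not counted in the 640, another probe turned the sign, to -0.035 for Psmb7, -0.15 for Psmd12, -0.11 for Psmd6, 0.19 for Psmd7 and 0.36 for Psme4. The call of Psma7 was lost on its other probe, and Psmd10 gained a call on another probe. With 1 mouse left out at a time it ran from -0.13 to 0.045 for Psma2, -0.085 to 0.12 for Psma3, -0.024 to 0.10 for Psmb3, -0.0053 to 0.11 for Psmb4, -0.21 to 0.024 for Psmb6, -0.092 to 0.12 for Psmc1, -0.026 to 0.13 for Psmc2, -0.069 to 0.073 for Psmc4, -0.035 to 0.0017 for Psmc6, -0.023 to 0.094 for Psmd1, -0.048 to 0.34 for Psmd14, -0.15 to 0.35 for Psmd6, -0.00093 to 0.19 for Psmg2 and -0.0094 to 0.079 for Psmg3.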
